A study of Drosophila melanogaster with 7 samples.

Results

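The trypsin genes of *Drosophila melanogaster* described here are *alphaTry*, *betaTry*, *gammaTry*, *deltaTry*, *epsilonTry*, *zetaTry*, *etaTry*, *thetaTry*, *iotaTry* and *lambdaTry*, listed by gene symbol. The family was chosen with earlier results of these data known. Of these 10 genes, 8 had a probe set that named them and no other gene, 1 each, among 13966 probe sets tested. No probe set used here named *gammaTry* or *deltaTry*, alone or with other genes, so those genes have no values. The larvae were whole first-instar animals of mixed sex, in 4 pools of pof mutants and 3 pools of wild type with 400 larvae a pool, and polyA RNA of each pool was hybridised to 1 single-colour Affymetrix array. The submitters call the pools biological replicates. Pof is an RNA-binding protein found along chromosome 4. The labels name neither the allele nor the background of the stocks, and give no hours after hatching.

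Trypsins are serine proteases that cut proteins after lysine or arginine. In insects they are made as inactive precursors, secreted by enterocytes of the midgut into the lumen and activated there to digest dietary protein, together with chymotrypsin-like enzymes such as the Jonah proteases. The fly trypsin genes described here lie in 1 cluster on chromosome arm 2R. In the Release 6 annotation of RefSeq the order along the arm is *lambdaTry*, *kappaTry*, *zetaTry*, *etaTry*, *thetaTry*, *alphaTry*, *epsilonTry*, *betaTry*, *gammaTry*, *CG30031*, *CG30025*, *deltaTry*, *CG13202* and *iotaTry*, so all 10 genes fall in a run of 14, and none is on chromosome 4. Several of the neighbours are close copies of each other, among them *gammaTry*, *deltaTry*, *CG30025* and *CG30031*, which no probe set names. How far a probe set binds RNA of a neighbouring copy was not tested, so the signals named *alphaTry* and *betaTry* below cannot be assigned to those genes alone.

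All values below are log2 expression values of the authors' RMA summaries, so a value is compared from array to array, and levels are not ranked across genes. Differences between genes and sums over a list are likewise compared only between arrays. Such sums weigh the brightest probe sets most. The targeted gene, *Pof*, was at 3.41 to 3.50 on the 4 mutant arrays, below the 3.64 to 3.90 of the 3 wild-type arrays, a log2 difference of -0.33 ± 0.07 (SE; adjusted p = 0.323 by limma) at a signal near the floor of the array. At that signal it says little about the labels. Every array had a median of 6.01 to 6.06, and all 8 trypsin genes had a mean above 7. The tissue was the whole larva, so a change in the amount of midgut and a change in RNA per midgut cell cannot be told apart. Midgut genes were present. *mex1*, an enterocyte gene, had a mean of 8.37 and *GATAe*, a transcription factor of the midgut, 6.52. The arrays also differed in 3' bias, taken as the log2 signal at the 3' end minus that at the 5' end and averaged over the control genes for GAPDH, actin and eIF-4a. It was 3.22, 3.95, 2.12 and 2.19 on pof mutant replicates 1 to 4, and 4.32, 2.02 and 1.92 on wild type replicates 1 to 3.

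In pof mutant larvae 7 of the 8 trypsin genes had a higher mean than in wild type, and none passed the threshold of limma (adjusted p under 0.05 over all probe sets), which 0.0644% of all probe sets did. The smallest p belonged to *betaTry*, *thetaTry* and *iotaTry*, at 2.58-fold, 1.93-fold and 1.5-fold the wild-type level. For these 3 genes all mutant arrays lay above all wild-type arrays, as was so for 3.21% of all probe sets, and the unadjusted p was under 0.05, as it was with a higher mutant mean for 3.06%. The median difference over the 8 genes was 0.44, against -0.02 over all probe sets, of which 42.0% had a higher mean in the mutant. Among the 3885 probe sets with a mean of at least 7, a limit chosen after the values were seen, the median difference was 0.01, 52.5% were higher and 4.99% had all mutant arrays above all wild-type arrays.

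**Figure D1:**
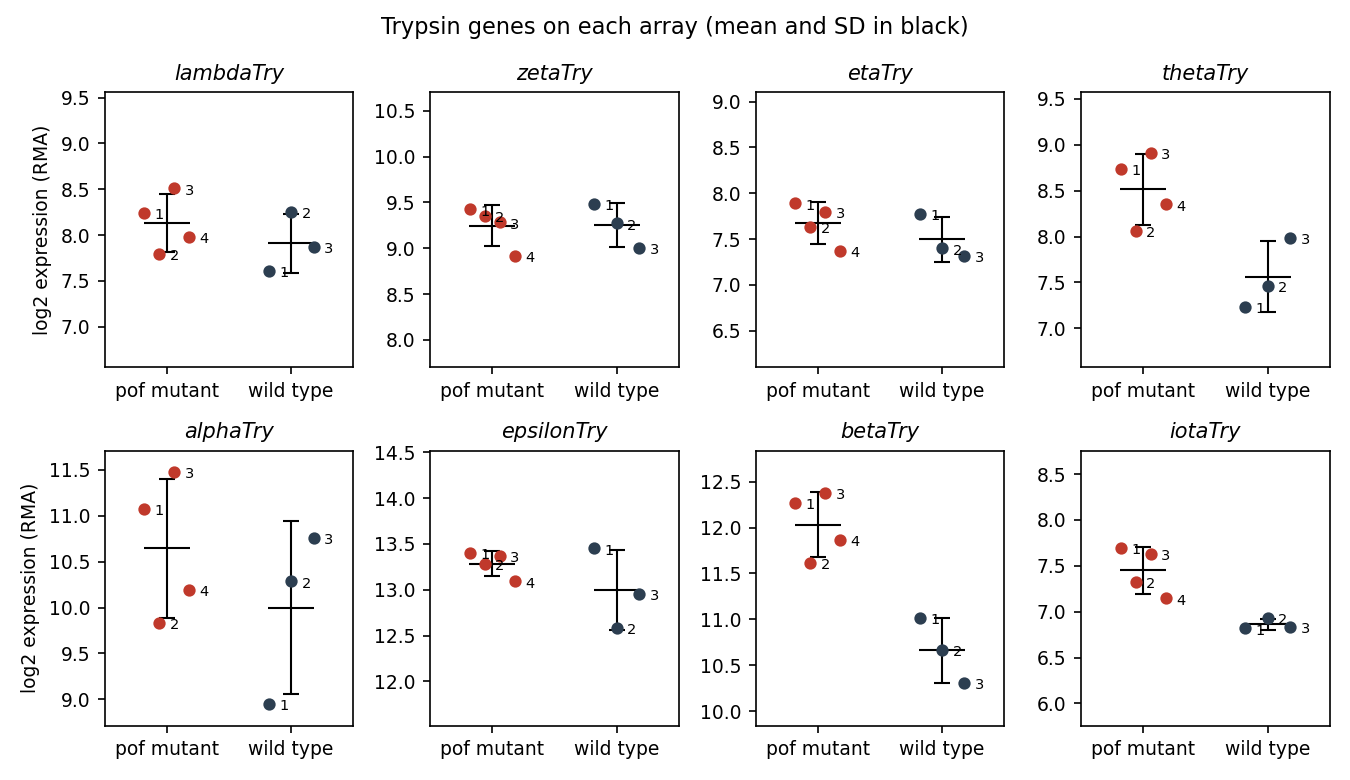
Log2 expression (RMA, vertical axes, each spanning the same range of log2 units) of the 8 measured trypsin genes, in chromosome order, on 4 pof mutant arrays (left, red) and 3 wild-type arrays (right, dark), with replicate numbers beside the points and the mean and SD in black. The groups are apart for *betaTry*, *thetaTry* and *iotaTry*, and overlap for the other 5 genes.

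*betaTry* (143602_at) had the largest difference of the family. Its log2 expression was 12.27, 11.61, 12.37 and 11.86 on pof mutant replicates 1 to 4, against 11.01, 10.66 and 10.31 on wild type replicates 1 to 3. The lowest mutant array stood clear of the highest wild-type array, and within the mutant replicates 1 and 3 were the high ones. The means were 12.03 ± 0.36 (SD, n = 4) on mutant arrays and 10.66 ± 0.35 (SD, n = 3) on wild-type arrays, a log2 difference of 1.37 ± 0.22 (SE; adjusted p = 0.156 by limma, unadjusted p = 0.000335) with a 95% interval of 0.85 to 1.89. With the 3' bias as a covariate it was 1.36 and passed the threshold (limma, adjusted p = 0.0464). In that fit 86 of all probe sets passed, against 9 in the main fit. With array weights, a fit whose weights did not converge, *betaTry* (1.41), *thetaTry*, *epsilonTry* and *iotaTry* passed, among 1200 of all probe sets. Over the 4 arrays of low 3' bias, pof mutant replicates 3 and 4 and wild type replicates 2 and 3, *betaTry* differed by 1.63 (limma, adjusted p = 0.350).

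*thetaTry* (143660_at) encodes another trypsin of the cluster and lies next to *alphaTry*. It had values of 8.74, 8.06, 8.91 and 8.35 on pof mutant replicates 1 to 4, against 7.24, 7.47 and 7.99 on wild type replicates 1 to 3. The groups came close without overlapping, through pof mutant replicate 2 and wild type replicate 3. The means were 8.52 ± 0.38 (SD, n = 4) on mutant arrays and 7.56 ± 0.38 (SD, n = 3) on wild-type arrays, with a log2 difference of 0.95 ± 0.24 (SE; adjusted p = 0.417 by limma, unadjusted p = 0.00467).

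*iotaTry* (143775_at), at the far end of the cluster, is separated from the other trypsins by *CG13202*. Its values were 7.70, 7.33, 7.63 and 7.15 on pof mutant replicates 1 to 4, against 6.82, 6.93 and 6.84 on wild type replicates 1 to 3. The wild-type arrays were nearly level, and the mutant arrays were more spread, with replicates 1 and 3 again high. The means were 7.45 ± 0.26 (SD, n = 4) on mutant arrays and 6.86 ± 0.06 (SD, n = 3) on wild-type arrays, with a log2 difference of 0.59 ± 0.14 (SE; adjusted p = 0.325 by limma, unadjusted p = 0.00283). *CG13202* itself differed by 0.06 ± 0.12 (SE; limma, adjusted p = 0.972).

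*alphaTry* (143385_at) varied most from pool to pool. It was at 11.08, 9.83, 11.48 and 10.19 on pof mutant replicates 1 to 4, and at 8.95, 10.29 and 10.76 on wild type replicates 1 to 3. The groups overlapped widely, and the spread within each group was larger than the difference between the means. These were 10.64 ± 0.76 (SD, n = 4) on mutant arrays and 9.998 ± 0.94 (SD, n = 3) on wild-type arrays, a log2 difference of 0.65 ± 0.52 (SE; adjusted p = 0.962 by limma). Without wild type replicate 1, the lowest array and the one with the largest 3' bias, it was 0.12, and without pof mutant replicate 3 it was 0.37. Without wild type replicate 3 it was 1.03, and over all arrays left out singly it ran from 0.12 to 1.03.

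*epsilonTry* (143624_at), which lies between *alphaTry* and *betaTry*, had values of 13.40, 13.28, 13.37 and 13.09 on pof mutant replicates 1 to 4, and of 13.45, 12.59 and 12.95 on wild type replicates 1 to 3. Wild type held both the highest and the lowest array. Its log2 difference was 0.29 ± 0.19 (SE; limma, adjusted p = 0.962), and it was 0.08 without wild type replicate 2 and 0.52 without wild type replicate 1.

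The other 3 genes, on the *lambdaTry* side of the cluster, had differences close to the size of their standard errors or smaller, and those values moved with single arrays. *lambdaTry* (147014_at) was at 8.24, 7.79, 8.51 and 7.98 in the mutant and at 7.61, 8.25 and 7.87 in wild type, a log2 difference of 0.22 ± 0.20 (SE). It was 0.07 without wild type replicate 1, 0.39 without wild type replicate 2, 0.09 with pof mutant replicate 3 left out and 0.33 with pof mutant replicate 2 left out. *etaTry* (143659_at) was at 7.89, 7.63, 7.80 and 7.37 in the mutant and at 7.77, 7.40 and 7.32 in wild type, a log2 difference of 0.18 ± 0.15 (SE). It was 0.09 without wild type replicate 3, 0.31 without wild type replicate 1, 0.10 with pof mutant replicate 1 left out and 0.28 with pof mutant replicate 4 left out. *zetaTry* (143661_at) had 9.42, 9.35, 9.28 and 8.92 in the mutant and 9.49, 9.27 and 9.01 in wild type. Its log2 difference was -0.01 ± 0.15 (SE), with a 95% interval of -0.36 to 0.34, which leaves room for a change of either sign. For each of these 3 genes the groups overlapped (limma, adjusted p of at least 0.962).

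**Figure D2:**
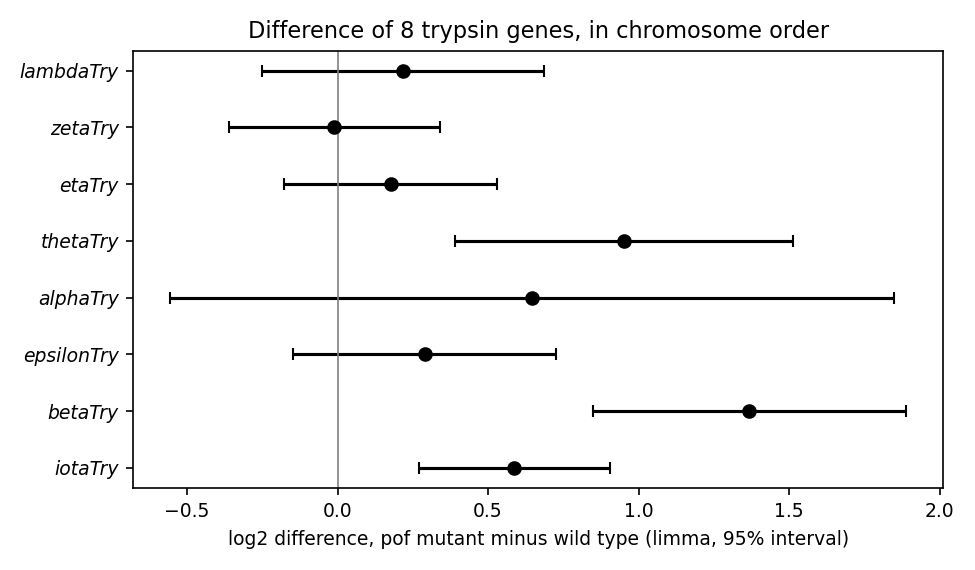
Log2 difference, pof mutant minus wild type (horizontal axis), of the 8 measured trypsin genes from *lambdaTry* at the top to *iotaTry* at the bottom, in chromosome order, with limma's 95% intervals (not adjusted for the number of probe sets). The intervals of *betaTry*, *thetaTry* and *iotaTry* lie above 0, and the other 5 include it.

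Whether the trypsin genes differed from each other in their change was examined with the within-array difference of each of 28 pairs of genes, compared between 4 mutant and 3 wild-type arrays over all 35 splits of the arrays. The mutant minus wild-type change of *betaTry* exceeded that of *zetaTry* by 1.38, of *etaTry* by 1.19, of *lambdaTry* by 1.15, of *epsilonTry* by 1.08 and of *iotaTry* by 0.78 on the log2 scale (exact two-sided permutation p = 0.0286 for each, the smallest the design allows; adjusted p = 0.1 over the 28 pairs). The same p belonged to *thetaTry* against *lambdaTry* (0.73) and to *iotaTry* against *zetaTry* (0.60) and *etaTry* (0.41), so 8 pairs reached it and none passed after adjustment. With 35 splits no pair could pass by itself, since an adjusted p under 0.05 over 28 pairs needs many pairs at that smallest p. *betaTry* against *thetaTry* (0.42) and against *alphaTry* (0.72) had an exact permutation p of 0.343 for each.

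Among the mutant pools the trypsin genes mostly stood on the same side of their means, and among the wild-type pools they did not. All 8 genes were above their own mutant mean on pof mutant replicates 1 and 3, while 1, *zetaTry*, was on replicate 2 and 0 were on replicate 4. On wild type replicates 1 to 3, the genes above their own wild-type mean numbered 4, 5 and 2. On wild type replicate 1 *alphaTry* lay 1.05 below its wild-type mean while *epsilonTry* lay 0.45 above it. After removal of the group means, *alphaTry* varied with *thetaTry* (Pearson r = 0.938 over 7 arrays) and *lambdaTry* (r = 0.822), and *zetaTry* with *etaTry* (r = 0.905), whereas *alphaTry* and *epsilonTry* had r = -0.343. These values are descriptions, since the 7 arrays then hold only the spread within groups. Without that removal, *alphaTry* and *lambdaTry* had a Pearson r of 0.849 (exact permutation p = 0.0165, adjusted p = 0.107 over 28 pairs) and a Spearman rho of 0.821 (exact permutation p = 0.0341, adjusted p = 0.191). Without the 2 arrays farthest from the median of *alphaTry*, r was 0.497. *zetaTry* and *etaTry* had a Pearson r of 0.817 (exact permutation p = 0.0230, adjusted p = 0.107) and a Spearman rho of 0.786 (exact permutation p = 0.0480, adjusted p = 0.192), and r was 0.580 without the 2 arrays farthest from the median of *zetaTry*.

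None of the 8 genes had a relation with the 3' bias of the arrays that passed after adjustment (adjusted Pearson p of at least 0.242, adjusted Spearman p of at least 0.265). Over the 7 arrays r was above 0 for *zetaTry* (Pearson r = 0.729, exact permutation p = 0.0675; Spearman rho = 0.750, exact permutation p = 0.0663), *epsilonTry* (Pearson r = 0.650, exact permutation p = 0.110; Spearman rho = 0.786, exact permutation p = 0.0480) and *etaTry* (Pearson r = 0.590, exact permutation p = 0.149; Spearman rho = 0.536, exact permutation p = 0.236). *alphaTry* (Pearson r = -0.676, exact permutation p = 0.0994; Spearman rho = -0.607, exact permutation p = 0.167) and *lambdaTry* (Pearson r = -0.617, exact permutation p = 0.151; Spearman rho = -0.571, exact permutation p = 0.200) had r below 0. Without the arrays farthest from the median 3' bias, wild type replicate 1 and pof mutant replicate 2, r was 0.308 for *alphaTry* and 0.210 for *lambdaTry*, so their values below 0 rest on those 2 arrays. All 8 genes then had r above 0, from 0.210 to 0.734. Of the remaining arrays only pof mutant replicate 1, where all 8 genes were high, had a bias over 3, so these values rest on that 1 array and say nothing of a relation with bias. The 7 arrays fall into 4 with a bias of 1.92 to 2.19 and 3 with 3.22 to 4.32, so the values over all 7 mostly compare those 2 sets. For the 3 genes whose groups did not overlap only r after removal of the group means is given, as a description: it was 0.170 for *betaTry*, -0.075 for *iotaTry* and -0.665 for *thetaTry*.

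**Figure D3:**
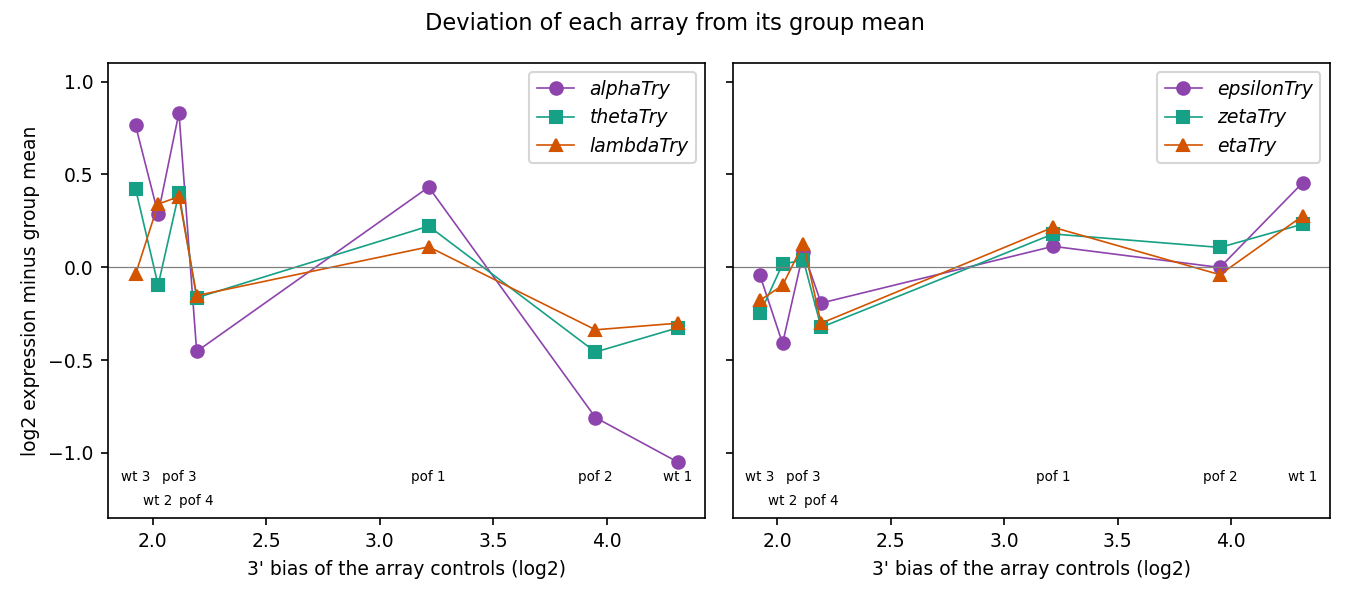
Deviation of each array from the mean of its own group (vertical axis, log2) against its 3' bias (horizontal axis, log2), for *alphaTry*, *thetaTry* and *lambdaTry* on the left and *epsilonTry*, *zetaTry* and *etaTry* on the right, a grouping made after the values were seen; lines join the 7 arrays in order of that bias. The left genes are lowest on pof mutant replicate 2 and wild type replicate 1, where *alphaTry* lies 0.81 and 1.05 below its group means, and the right genes lie 0.23 to 0.45 above their group mean on wild type replicate 1 but between -0.04 and 0.11 on pof mutant replicate 2.

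Other digestion genes did not share 1 direction. Of 51 measured genes in 4 lists of digestive enzymes, 26 had a higher and 25 a lower mean in the mutant, no gene reached an adjusted p under 0.05 (limma), and 17 had an unadjusted p under 0.05 (5.43% of all probe sets), with 9 higher (3.06% of all probe sets) and 8 lower (2.37%). The 9 became 3 when pof mutant replicate 1 was left out and 4 when replicate 3 was, and the 8 became 3 when wild type replicate 2 was left out, 4 when pof mutant replicate 3 was and 5 when replicate 2 or 4 was. Only 37 of the 51 had a mean of at least 6, so the 26 and 25 include genes of low signal. A fit limited to probe sets of that level gave 7 higher and 4 lower digestion genes at an unadjusted p under 0.05 (limma), with no shares computed. Among 11 measured trypsin-like proteases outside the family the median difference was 0.02. That median was the value of *Send1*, whose mean was 4.37. *Ser12* (3.42), *Send2* (5.76) and *Ser8* (5.94) also had a mean under 6, and 7 of the 11 were at 6 or above. Of those 7, *CG7542* (-0.08 ± 0.14) and *Try29F* had a lower mean in the mutant and the others a higher one, among them *CG10472* (0.38 ± 0.25). Whether each of the 11 acts in the larval gut was not tested. *kappaTry*, which lies inside the cluster, had 8.46, 8.20, 8.48 and 8.13 in the mutant and 8.03, 8.13 and 7.98 in wild type. Its mutant arrays lay above its wild-type arrays by a margin smaller than the SD of either group, with a log2 difference of 0.27 ± 0.10 (SE; adjusted p = 0.842 by limma). *Ser6* (0.50 ± 0.21), *CG8299* (0.22 ± 0.09) and *CG17571* (0.38 ± 0.23) had the next smallest p, with an adjusted p of at least 0.912 (limma), and *Try29F*, a trypsin gene on 2L, differed by -0.03 ± 0.13.

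The Jonah genes, which encode chymotrypsin-like proteases of the gut, differed both ways, and none passed. Of 14 measured, 3 were higher and 4 lower at an unadjusted p under 0.05. Their median difference was 0.07. *Jon44E* was at 11.81, 11.40, 11.87 and 11.66 in the mutant and at 10.86, 11.27 and 10.97 in wild type, a log2 difference of 0.65 ± 0.14 (SE; adjusted p = 0.273 by limma), with the groups apart. *Jon25Biii* was at 12.30, 11.88, 12.40 and 12.08 in the mutant and at 12.62, 12.89 and 12.71 in wild type, a log2 difference of -0.58 ± 0.13 (SE; adjusted p = 0.323 by limma), apart in the opposite direction. *Jon25Bi* (-0.48 ± 0.12) and *Jon65Aiv* (0.82 ± 0.30) had the next smallest p (limma, adjusted p of 0.426 and 0.811).

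For 19 measured genes of carbohydrate digestion, 11 of them with a mean of at least 6, the median difference was -0.12. That median was the value of *Mal-B1*, whose mean was 5.22. The alpha-mannosidase genes *LManI* (0.53 ± 0.10), *LManII* (0.67 ± 0.19) and *LManIV* (-0.25 ± 0.09) and the amylase-related gene *Amyrel* (-0.24 ± 0.10) had the smallest p, with adjusted p of at least 0.169 (limma). *LManIV*, with a mean of 3.74, was near the floor of the array, and *LManI* was low at 4.79. For 7 gut lysozyme and lipase genes the median difference was -0.17, with the lysozyme gene *LysS* at 0.48 ± 0.16, the lipase gene *mag* at -0.39 ± 0.13, and *LysB* (-0.22 ± 0.15) and *LysE* (-0.17 ± 0.14) after them (limma, adjusted p of at least 0.750). *LysB*, *LysE* and *LysD* (-0.18 ± 0.17) are close copies whose probe sets could bind each other's RNA, so they may not be separate measurements. The list median was the value of *LysE*.

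**Figure D4:**
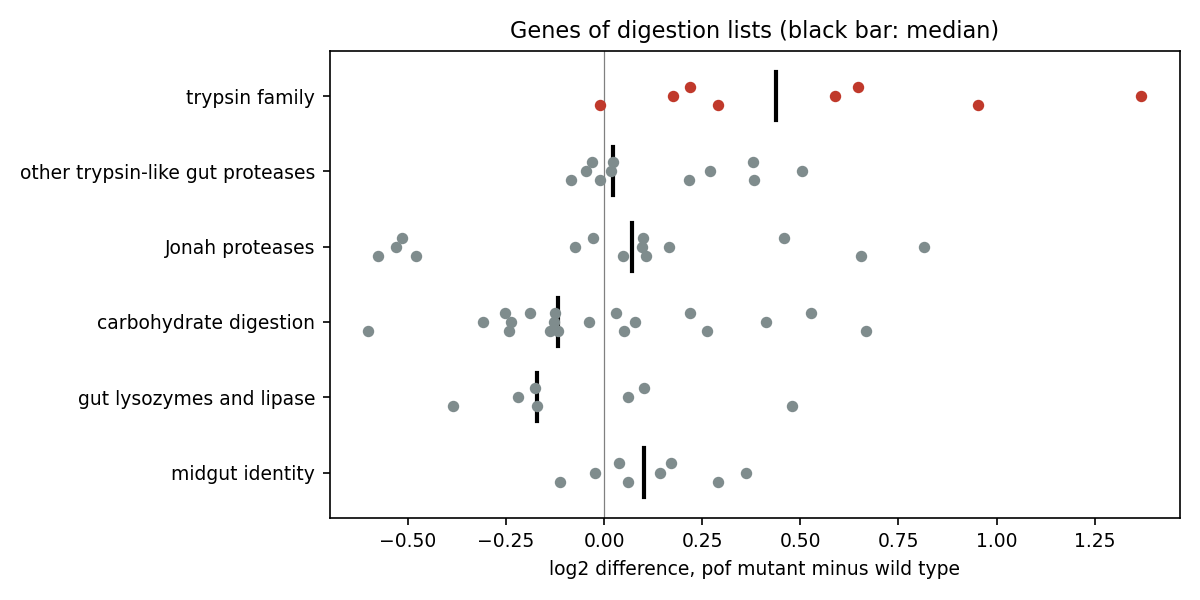
Log2 difference, pof mutant minus wild type (horizontal axis), of each measured gene (points) in the trypsin family (red) and in 5 other lists (grey), with the median of each list as a black bar; the vertical offset of points within a list has no meaning. The median is 0.44 for the 8 trypsin genes and lies between -0.17 and 0.10 for the other 5 lists shown. The medians are not matched in signal level, as all 8 trypsin genes had a mean above 7. A mean of at least 6 was reached by 7 of 11 other trypsin-like and 14 of 14 Jonah genes. It was reached by 11 of 19 carbohydrate, 5 of 7 lysozyme and lipase and 7 of 8 midgut genes. The fat body markers, with a median of 0.29, are not shown.

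Markers of midgut and of other tissues were set beside the trypsin genes. *mex1* was at 8.70, 8.35, 8.80 and 8.24 in the mutant and at 8.22, 8.11 and 8.16 in wild type, again with pof mutant replicates 1 and 3 high, and differed by 0.36 ± 0.14 (SE; limma, adjusted p = 0.845). Of 8 measured midgut markers, 6 had a higher mean in the mutant, and the median of their differences was 0.10. Besides *mex1*, the peptide hormone gene *NPF* (0.29 ± 0.11), *pros* (-0.11 ± 0.07), a transcription factor of enteroendocrine cells, and *GATAe* (0.14 ± 0.10) had the smallest p. For *mex1* and *NPF*, 2 of the 8, all mutant arrays lay above all wild-type arrays, as for 3.21% of all probe sets. The log2 of the summed midgut signal ran from 9.97 to 10.35 in the mutant and from 9.94 to 10.06 in wild type.

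Of 7 measured fat body markers 6 had a higher mean in the mutant. Their median difference was 0.29, and the log2 of their summed signal was 11.84 to 12 in the mutant, against 11.41 to 11.79 in wild type. *mdy* (0.57 ± 0.10), an enzyme of fat synthesis, *FASN1* (0.37 ± 0.09), a fatty acid synthase, *Desat1* (0.46 ± 0.15), a fatty acid desaturase, and the lipid carrier *apolpp* (0.29 ± 0.15) had the smallest p (limma, adjusted p of at least 0.169). For *mdy*, *FASN1* and *Desat1*, 3 of the 7, all mutant arrays lay above all wild-type arrays. The same held for 3 of the 8 trypsin genes and 3.21% of all probe sets. The other probe set of *mdy* differed by 0.02 ± 0.15. The median differences were 0.12 for 5 muscle markers, -0.03 for 7 neuron, -0.17 for 4 cuticle and epidermis, 0.02 for 8 haemocyte and 0.0049 for 7 salivary gland markers, none with a gene past limma's threshold. The part of tissue makeup in the trypsin values was not tested.

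The genes most like the trypsins from array to array were taken from 12435 probe sets that name 1 gene outside the family, by Pearson r over the 7 arrays, which includes the difference between groups. For *betaTry* the nearest were *LManI* (r = 0.997), *Btnd* (r = 0.990), *CG9259* (r = 0.984), *Cyp6a17* (r = 0.974) and *CG6738* (r = 0.965). *LManI* had 5.11, 4.86, 5.17 and 4.92 in the mutant and 4.60, 4.48 and 4.38 in wild type, so its arrays stood in the same order as those of *betaTry*. *Cyp6a17*, a cytochrome P450 gene, was the 1 of these 5 past limma's threshold, with a log2 difference of 2.39 ± 0.23 (SE; adjusted p = 0.0177 by limma). For the mean of the 8 trypsin genes, each centred on its own mean, the nearest were *LysS* (r = 0.992), *CG16749* (r = 0.987), *sphe* (r = 0.986), *CG5506* (r = 0.985) and *Tmep* (r = 0.979). Of all candidates, 50 had r over 0.9 with *betaTry* and 113 with the trypsin mean. With 7 arrays and this many candidates, high values of r are found for many genes.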

How the data were processed

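The deposited values are log2 expression values that the authors made with RMA (no version given), per the submitters' processing notes. RMA corrects background, quantile normalizes arrays and summarises probes, and compresses low signals. Groups and replicate numbers came from the sample titles. Probe sets were named through the platform annotation, updated by gene identifier from RefSeq (Release 6). Where a gene had several, the brightest on average was used.

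All 13966 probe sets other than the 44 array controls were fitted with limma 3.58.1 in R 4.3.3 (lmFit, eBayes, no covariate, pof mutant minus wild type), with Benjamini-Hochberg adjustment over all of them and a threshold of 0.05. The fit was tested on simulated data. Pairs of genes were compared with exact permutation tests over the 35 splits of the arrays. Lists are described by counts and medians, with no set test. Precision is limited by the 7 arrays. The trypsin genes, the lists and the tests were chosen with earlier results of these data known, and the tests of pairs after their values were seen. Named are all measured trypsin genes and the up to 4 genes of smallest p in each digestion, midgut or fat body list. Also named are the 5 genes most correlated with *betaTry* and with the trypsin mean. Other genes named (*Try29F*, *CG13202*, *CG7542*, *CG10472*, *Send1*, *Send2*, *Ser8*, *Ser12*, *Mal-B1*, *LysD*) were chosen after their values were seen.

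Alternatives were a further quantile normalization, eBayes with trend and robust, array weights, the replicate number as a block, leaving out each array, a mean level of at least 6, dropping the probe set types _s_at, _x_at and _a_at, the 3' bias as a covariate and, added after the data were seen, only the 4 arrays where it was under 3. Figures were drawn with matplotlib 3.10.9.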

Additional observations from a re-analysis of the deposited data

How the results depend on the processing

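The direction of *alphaTry*, *betaTry*, *epsilonTry*, *etaTry*, *thetaTry* and *iotaTry* was the same in all 15 alternatives. Not all of these could change it. The differences cannot move with eBayes trend and robust, with the level limit or with probe set types dropped. The replicate block gives the same differences as leaving out pof mutant replicate 4. *betaTry* ranged from 1.19 to 1.63, *thetaTry* from 0.79 to 1.16 and *iotaTry* from 0.50 to 0.69, each with an unadjusted p under 0.05 throughout (limma; adjusted p of 0.00107 to 0.549 for *betaTry*). *zetaTry* ranged from -0.13 to 0.11 when single arrays were left out; it turned to 0.10 with the replicate block and without pof mutant replicate 4, and to 0.11 without wild type replicate 1. *lambdaTry* turned to -0.086 with array weights. The causes were not tested. *etaTry* had an unadjusted p of 0.0449 with the replicate block and 0.0293 with array weights (limma, adjusted p of at least 0.142 in all alternatives). The median of the family was 0.32 to 0.52 when single arrays were left out.

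No trypsin gene passed limma's adjusted threshold except with the covariate, where 1 did (*betaTry*), and with array weights, where 4 did (*betaTry*, *thetaTry*, *epsilonTry* and *iotaTry*). Shares of all probe sets at an unadjusted p under 0.05 are given for the main fit only. Counts at that limit in the alternatives therefore have no share beside them. With array weights 5 trypsin genes were higher at that limit, against 3. There the digestion lists had 16 higher and 17 lower at that limit and 21 past the adjusted threshold, which 1200 of all probe sets passed; the weights gave wild type replicate 2 a weight of 17.1 against 0.142 to 1.40 for the other arrays, and their estimation stopped before it converged. With the covariate 2 digestion genes passed the adjusted threshold, which 86 of all probe sets passed, against 9 in the main fit. At an unadjusted p under 0.05 the higher digestion genes numbered 3 to 9 when single arrays were left out (3 and 4 where pof mutant replicate 1 or 3 was left out) and 3 over the 4 arrays of low 3' bias, and the lower ones 3 to 8 when single arrays were left out (3 with wild type replicate 2 dropped, 4 with mutant replicate 3 dropped and 5 with mutant replicate 2 or 4 dropped), 5 with the replicate block and 4 at a mean level of at least 6.

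Replicate numbers did not pair the arrays. Deviations of same-numbered arrays from their group means correlated at 0.245, -0.571 and 0.559. With the replicate block, which cannot use pof mutant replicate 4, 0 trypsin genes passed the adjusted threshold, 4 were higher at an unadjusted p under 0.05, and the median difference was 0.52. Of all probe sets 2 passed, against 9.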
